A study of Rattus norvegicus with 12 samples.

Results

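The genes of the translation initiation factors were described on 12 Affymetrix Rat Genome 230 2.0 arrays, taken as the genes whose probe sets carry a single symbol beginning with Eif. Eif2s3 and Eif2s3y were left out. This gave 47 genes of 14218 named on the array, each read from the probe set with the highest mean signal over the 12 arrays. Eif1 was not analysed here, and probe sets named for Eif3e or Eif5 together with another gene were not used here. The 4 groups had 3 arrays each, labelled as biological replicates, and all came from the inbred rat strain DA (Dark Agouti). RAH-6 and RAH-2 are 2 lines of androgenetic ES cells (RahES), which carry only a paternal genome and which the growth protocol calls haploid. DA5-3 is a diploid rat ES line. All 3 lines were grown in N2B27-2i medium and dissociated with trypsin. Round sperm cells, the haploid cells that follow meiosis, were freshly isolated. Ages of the animals and the method of isolation are not given in the labels. Each ES group is 1 line, so that ploidy, parental origin and line cannot be told apart in the comparison with DA5-3, nor culture and cell type in the comparison with round sperm cells.

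Initiation brings a ribosome to the start codon of an mRNA. The factor eIF2 carries the initiator tRNA and is recharged by the exchange factor eIF2B, while kinases that phosphorylate its alpha subunit slow this recharging. The complex eIF4F, made of the cap-binding protein eIF4E, the helicase eIF4A and the scaffold eIF4G, recruits the mRNA, and eIF4E-binding proteins compete with eIF4G for eIF4E. Spermatids store many mRNAs and translate them later, when transcription has stopped, and ES cells in culture divide fast and make protein at a high rate.

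The cell types carried most of their markers on the array. Of the ES cell markers, Fgf4 and Nr0b1 were below 100 on every array of both RahES lines, and Nr0b1 on those of DA5-3. The spermatid marker H1f6 was below 100 on every round sperm array. Summed over 11 ES cell markers on the array, the MAS5 signal ran from 52468 to 53061 in RAH-6, from 60920.2 to 63971 in RAH-2, from 66232 to 70806 in DA5-3 and from 7017 to 8035 in round sperm cells. Over 13 round spermatid markers it was at most 603 on any ES cell array, against 291476 to 314800.2 in round sperm cells. Markers of other cells were also measured. Over 6 spermatocyte markers the signal was 3355 to 3495 in RAH-6, 2804 to 3525 in RAH-2, 873 to 939 in DA5-3 and 31985 to 35960.1 in round sperm cells, where 0 of the 6 were below 100 on every array. In each ES line 4 of the 6 were below 100 on every array (Sycp1, Sycp2, Spo11 and Ccna1). Both spermatocyte markers tested between RahES and DA5-3 were called higher in RahES cells. Round sperm cells held 3514 to 3908 over 10 macrophage and blood markers and 708 to 1030.2 over 6 Leydig cell markers. Of 6 Sertoli cell markers, 4 were below 100 on every round sperm array (Amh, Gata4, Inhbb and Rhox5). In RAH-6 and RAH-2 4 were as well (Amh, Gata4, Wt1 and Cldn11), and in DA5-3 3 (Amh, Wt1 and Cldn11). The sum ran from 13372.6 to 15755 over the ES cell arrays, mainly from the remaining markers, and from 678 to 775 in round sperm cells. The summed signal of 16 fibroblast markers was 20320.4 to 21047 in RAH-6, 15100.1 to 20778 in RAH-2, 59016 to 62907 in DA5-3 and 1166 to 1205 in round sperm cells. Their part in the results below was not tested. The ratio of 3′ to 5′ Gapdh control probes, which rises as RNA breaks down, was 1.11 to 1.16 in RAH-6, 1.23 to 1.29 in RAH-2, 1.35 to 1.69 in DA5-3 and 1.78 to 2.48 in round sperm cells, and its part was not tested either. The same ratio for beta-actin gave another order, with 2.94 to 3.28 in RAH-6, 3.99 to 4.93 in RAH-2, 4.62 to 8.54 in DA5-3 and 3.62 to 4.72 in round sperm cells. The value of 8.54 was that of DA5-3 replicate 1. Counts without this array, RAH-2 replicate 2 and round sperm replicate 1, which earlier work on these data had set apart by their control probe sets, are given beside the counts below. Replicates of a group correlated at 0.967 to 0.984 over all probe sets. In bulk samples such as these, fewer cells of a type and less RNA per cell cannot be told apart.

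Of the 47 genes, 41 had a signal of at least 100 on every array, the limit taken here for a measured signal. Signals below 100 on all round sperm arrays were seen for 4 genes, Eif1ax, Eif2ak2, Eif2ak3 and Eif2ak4, and on all RahES arrays for Eif4e3. Eif1ax is the only member on the X chromosome, and 46 lie on autosomes. All 47 passed the filter of both fits (a signal of at least 100 on at least 3 arrays), but the 4 genes below 100 in round sperm cells passed it through the ES cell arrays alone, and Eif4e3 passed that of the ES cell fit through DA5-3 alone. Their direction against those groups follows from the filter.

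RefSeq promoters of the assembly GRCr8, from 250 bases before to 50 bases after a gene's start, were available for 43 members, some with several starts, 46 promoters in all. Those of 4 genes on which the results turn are shown: the gene with the largest difference to round sperm cells, a kinase that differed between the ES lines, the cap-binding protein whose probe sets disagreed, and the gene with the largest difference in the other direction (its first start). Capitals mark the searched motifs on either strand. These are CCGGAAG, the core bound by ETS factors (its other strand reads CTTCCGG), the E-box CACGTG bound by Myc and related factors, GAAANNGAAA, which is like the elements of interferon-induced genes, and TGACGTCA, bound by CREB and ATF factors. No 2 of the marked stretches overlap.
Eif1ax, chrX:39321974-39322273, minus strand: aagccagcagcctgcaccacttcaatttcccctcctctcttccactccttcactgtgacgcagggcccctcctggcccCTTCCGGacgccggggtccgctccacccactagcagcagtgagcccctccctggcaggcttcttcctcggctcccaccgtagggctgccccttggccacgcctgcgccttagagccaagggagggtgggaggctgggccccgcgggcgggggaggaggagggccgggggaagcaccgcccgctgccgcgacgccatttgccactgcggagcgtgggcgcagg
Eif2ak2, chr6:21940904-21941203, plus strand: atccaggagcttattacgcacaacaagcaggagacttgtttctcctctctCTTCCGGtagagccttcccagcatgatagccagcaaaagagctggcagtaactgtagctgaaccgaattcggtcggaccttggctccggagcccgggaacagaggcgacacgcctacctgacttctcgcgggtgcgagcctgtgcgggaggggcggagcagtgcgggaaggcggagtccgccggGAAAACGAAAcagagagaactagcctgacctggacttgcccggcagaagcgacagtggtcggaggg
Eif4e, chr2:229740503-229740802, plus strand: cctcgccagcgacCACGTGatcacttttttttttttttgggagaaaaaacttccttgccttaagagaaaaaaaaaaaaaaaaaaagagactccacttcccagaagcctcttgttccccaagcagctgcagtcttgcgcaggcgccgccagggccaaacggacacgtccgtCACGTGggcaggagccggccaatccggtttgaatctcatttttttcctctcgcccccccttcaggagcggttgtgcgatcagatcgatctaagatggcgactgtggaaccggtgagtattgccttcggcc
Eif4g3, chr5:155481128-155481427, plus strand: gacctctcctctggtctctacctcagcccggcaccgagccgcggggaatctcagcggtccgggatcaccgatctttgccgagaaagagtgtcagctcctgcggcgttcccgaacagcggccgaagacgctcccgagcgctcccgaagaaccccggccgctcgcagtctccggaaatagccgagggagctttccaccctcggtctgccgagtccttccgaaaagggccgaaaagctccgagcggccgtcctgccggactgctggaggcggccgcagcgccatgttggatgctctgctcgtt
CCGGAAG stood in 43.5% of the 46 Eif promoters (20 of 46), against 17.7% of 9884 promoters of the genes tested on the 12 arrays and 8.75% of all 33469 promoters. Eif1ax and Eif2ak2 each hold 1 copy. CACGTG stood in 19.6% of Eif promoters (9 of 46), against 9.67% and 6.42% in the same larger sets, and Eif4e holds 2 copies. GAAANNGAAA stood in 4 Eif promoters (8.70%), among them that of Eif2ak2, against 2.86% and 3.92%. TGACGTCA stood in 0 of 46, against 3.20% and 1.83%. In the promoter of Eif4g3 none of these letters occurred. These shares are descriptions and were not tested.

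RahES cells were first set against round sperm cells. Differences are log2 fold changes of the MAS5 signal plus 16, tested with limma on all 12 arrays, and a gene was called where the p adjusted after Benjamini and Hochberg was below 0.05 and the fold change at least 2. Of the 47 genes 20 were called higher and 7 lower in RahES cells, 57.4%, where 72.1% of all 10529 genes tested were called, 43.2% higher and 28.9% lower. So a smaller share of initiation factor genes than of all genes passed the call. The median difference of the 47 was 0.58, against 0.59 over all genes tested, and the 42 members measured in both groups ran from -3.01 (Eif4g3) to 5.71 (Eif4ebp1). At the adjusted p alone 30 were higher and 14 lower, 93.6% of members against 92.8% of all genes (54.7% higher, 38.1% lower). Other scalings moved all genes, so that the medians of members and of all genes were 0.26 and 0.27 with median centring and 0.97 and 0.25 with quantile normalization. The count was again 20 higher and 7 lower without the 3 arrays named above. The arrays of the groups did not overlap for 42 of the 47 genes, as for 88.7% of all genes tested.

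DA5-3 cells gave 20 genes higher and 6 lower than round sperm cells, 55.3% against 72.7% of all genes tested (43.2% higher, 29.4% lower). Their median was 0.71, against 0.56 over all genes, and at the adjusted p alone 31 were higher and 12 lower, 91.5% of members against 91.2% of all genes (53.7% higher, 37.5% lower). Both comparisons use the same round sperm arrays. In both, 19 genes were called higher and 5 lower, and 18 were called in neither. The share of all genes called in both was not analysed here, so these counts describe the members only. Without the 3 arrays DA5-3 had 19 genes higher and 6 lower. The DA5-3 and round sperm arrays did not overlap for 44 of the 47 genes, against 90.7% of all genes tested.

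**Figure D1:**
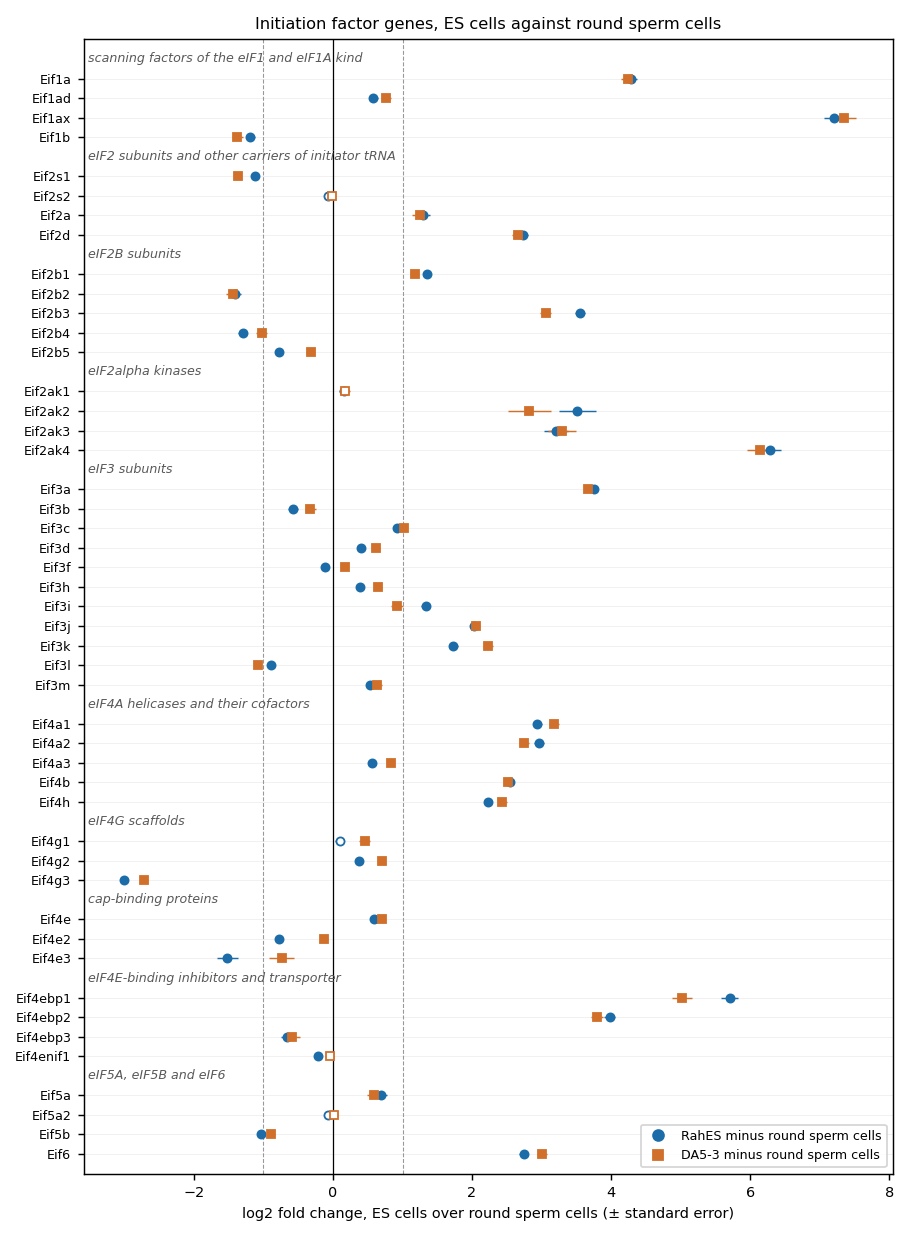
Log2 fold change (± standard error) of the 47 initiation factor genes in RahES cells (circles) and DA5-3 cells (squares) over round sperm cells, by role. Filled symbols passed the adjusted p of 0.05 and dashed lines mark the fold change of the call. Values of genes below 100 in a group are fitted and not measured sizes. Eif1ax lies farthest to the right and Eif4g3 farthest to the left in both comparisons.

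The scanning factors held the member with the largest difference. Eif1ax encodes eIF1A, which keeps the small ribosomal subunit open for scanning. Its signal ran from 9541 to 10298 (median 9949) in RahES cells, was 11471, 10653 and 11069 in DA5-3, and was 71.6, 29.1 and 62.3 in round sperm cells. Every ES cell array was far above every round sperm array, where the signal was below 100. The gene passed the filter through the ES cell arrays alone, so its direction follows from the filter and the adjusted p does not test it. The level was at least 99.4-fold higher in RahES cells (limma, adjusted p 3.2e-15) and at least 111-fold higher in DA5-3 (adjusted p 1.65e-14). Eif1a, an autosomal gene for the same factor, ran from 3444 to 3832 (median 3679) in RahES cells and was 3373, 3661 and 3566 in DA5-3, against 177, 140.1 and 203 in round sperm cells. The groups did not overlap, with a log2 difference of 4.29 ± 0.085 (SE) for RahES (limma, adjusted p 2.35e-15) and 4.24 for DA5-3. Transcripts of the 2 genes are alike in sequence, and how far each probe set reads the other gene was not tested. Eif1b, a close relative of the start codon selector eIF1, went the other way. Its signal ran from 1623 to 1751 (median 1699.8) in RahES cells and was 1329, 1615 and 1522 in DA5-3, against 3438, 4059 and 4159.8 in round sperm cells. It was lower in both kinds of ES cell, by log2 values of -1.19 (adjusted p 5.63e-10) and -1.37 (adjusted p 6.25e-10). Eif1ad, whose protein has an eIF1A-like domain, had log2 differences of 0.58 and 0.76 and was not called.

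Of the factors that carry initiator tRNA, Eif2d and Eif2a were higher and Eif2s1 was lower in ES cells. Eif2s1 encodes the alpha subunit of eIF2, the target of the kinases. Signals ran from 7171 to 7778 (median 7375) in RahES cells and were 6433, 6135 and 6275 in DA5-3, against 16970.0, 16095 and 15518 in round sperm cells. No ES cell array reached a round sperm array, and the log2 differences were -1.12 ± 0.040 for RahES (SE, limma, adjusted p 1.46e-12) and -1.36 for DA5-3 (adjusted p 1.04e-12). The beta subunit gene Eif2s2 averaged 16112 ± 619.8 in RahES cells, against 16954 ± 178 in round sperm cells (SD, n = 6 and 3), a log2 difference of -0.07 with an adjusted p of 0.0885 from limma. Eif2d, which loads initiator tRNA on some mRNAs without eIF2, had log2 differences of 2.73 and 2.67 in RahES and DA5-3. Eif2a, another such carrier, had 1.29 and 1.25, and both genes were called in both comparisons.

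Of all genes 43.2% were called higher and 28.9% lower in RahES cells, and 43.2% and 29.4% in DA5-3. The 5 genes of eIF2B, which recharges eIF2, split between the directions, with 2 called higher and 2 lower in RahES cells and again in DA5-3. Eif2b3, the gene of its gamma subunit, ran from 2713 to 2937 (median 2770.2) in RahES cells and was 1879.7, 1922 and 2138 in DA5-3, against 228, 197 and 248 in round sperm cells. This was a log2 difference of 3.55 ± 0.070 for RahES (SE, limma, adjusted p 2.1e-15) and 3.06 for DA5-3. Eif2b2, the beta subunit gene, ran from 902 to 1147 (median 1096) in RahES cells and was 1046, 1094 and 976 in DA5-3, against 2527, 2862 and 3196 in round sperm cells. It was lower in both kinds of ES cell, with log2 differences of -1.41 and -1.44 (limma, adjusted p 7.4e-10 and 3.41e-09). For Eif2b4, the delta subunit gene, signals ran from 1279 to 1414 (median 1361) in RahES cells and were 1777, 1526 and 1602 in DA5-3, against 3059, 3384 and 3608 in round sperm cells. Its log2 differences were -1.30 and -1.03. Eif2b1, the alpha subunit gene, was called higher at 1.36 and 1.18. Eif2b5, the catalytic subunit gene, was below the fold of the call at -0.78 and -0.32, and its other probe set gave the opposite direction.

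Among the 4 kinases of eIF2alpha 3 were called higher in ES cells, where 43.2% of all genes were in both comparisons. Each of these 3 was below 100 on all round sperm arrays. They passed the filter through the ES cell arrays alone, so their direction follows from the filter and the adjusted p does not test it. Eif2ak4 encodes GCN2, which senses lack of amino acids. Its signal ran from 3199 to 4231 (median 3671) in RahES cells and was 2952, 3663 and 3510.5 in DA5-3, against 51.5, 28.9 and 20.8 in round sperm cells, at least 37.4-fold higher in RahES cells and at least 33.6-fold higher in DA5-3 (limma, adjusted p 1.87e-14 and 1.59e-13). The double-stranded RNA sensor PKR is encoded by Eif2ak2, whose signal ran from 394 to 496 (median 456) in RahES cells and was 243, 258 and 328 in DA5-3, against 4.9, 46 and 36.5 in round sperm cells. It was at least 4.51-fold higher in RahES cells and at least 2.74-fold higher in DA5-3 (limma, adjusted p 8.64e-09 and 5.89e-07). Eif2ak3 encodes PERK, a sensor of unfolded protein in the endoplasmic reticulum. Signals ran from 477 to 619.5 (median 509) in RahES cells and were 438, 687 and 571 in DA5-3, against 63.3, 35 and 33.4 in round sperm cells, at least 5.25-fold and 5.56-fold higher. The fourth kinase gene, Eif2ak1, encodes HRI, which responds to lack of haem. It ran from 884 to 1029.5 (median 985) in RahES cells and was 1019, 963 and 933 in DA5-3, against 891, 905 and 789 in round sperm cells. Its log2 difference of 0.16 (limma, adjusted p 0.0359) in RahES cells was not called, and it turned below 0 with median centring or quantile normalization of the arrays. The second probe set of Eif2ak1, 1374402_at, gave 0.82 in RahES cells (limma on single probe sets, adjusted p 7.22e-07) and 0.81 in DA5-3. Both are short of the fold of the call.

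The 11 eIF3 subunit genes, whose product holds the small subunit apart from the large one, ranged from -0.90 to 3.75 in RahES cells. Of them 4 were called higher and 0 lower, against 43.2% and 28.9% of all genes. On the brightest probe sets Eif3a, the largest subunit's gene, stood apart from the others. Its signal ran from 8286 to 8711 (median 8527) in RahES cells and was 7783, 8454 and 7844 in DA5-3, against 646, 642 and 566 in round sperm cells, a log2 difference of 3.75 ± 0.049 for RahES (SE, limma, adjusted p 4.37e-17) and 3.67 for DA5-3. The other probe set of Eif3a, 1379485_at, gave 1.28 in RahES cells and 1.27 in DA5-3, in the fit on single probe sets described below. Eif3j and Eif3k followed on their brightest probe sets with 2.03 and 1.73 in RahES cells. The second probe set of Eif3k, 1381339_at, gave 0.44 in RahES cells. With the mean of all its probe sets Eif3j had 0.98 in RahES cells and 0.80 in DA5-3, short of the fold of the call. The probe set of Eif3l, by contrast, was brighter in round sperm cells. It ran from 7101 to 8432 (median 7941) in RahES cells and was 6699, 6749.7 and 7017 in DA5-3, against 14437, 14506 and 14466 in round sperm cells, which passed the fold of the call in DA5-3 (log2 -1.08, adjusted p 9.55e-12) and missed it in RahES cells (log2 -0.90, adjusted p 1.35e-11).

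Eif3i and Eif3c, like Eif3l, were called in 1 comparison. Eif3i ran from 7408 to 8150.4 (median 7913) in RahES cells and was 4979, 6409 and 6415 in DA5-3, against 2934, 3134 and 3270.3 in round sperm cells, with log2 differences of 1.33 for RahES and 0.92 for DA5-3. Eif3c ran from 11920.3 to 12231 (median 12037) in RahES cells and was 13062, 12711 and 12805 in DA5-3, against 6010.4, 6442 and 6571 in round sperm cells, with log2 differences of 0.93 for RahES and 1.02 for DA5-3. For both, every ES cell array was above every round sperm array, and the adjusted p in limma was 5.8e-08 or less in each comparison. The subunit genes Eif3b, Eif3d, Eif3f, Eif3h and Eif3m lay between -0.57 and 0.53 in RahES cells and were called in neither comparison.

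Of the eIF4A helicases and their cofactors, 4 of 5 genes were called higher in each kind of ES cell, where 43.2% of all genes were. Eif4a1 and Eif4a2 encode the helicases that unwind the mRNA leader. Eif4a1 ran from 16544 to 19382 (median 18048) in RahES cells and was 22004, 21270.3 and 20636 in DA5-3, against 2081, 2446 and 2478 in round sperm cells. Eif4a2 ran from 11024 to 13286 (median 11720.5) in RahES cells and was 10108, 10441 and 10207 in DA5-3, against 1421, 1384 and 1761 in round sperm cells. Both genes had every ES cell array above every round sperm array, with log2 differences in RahES cells of 2.94 ± 0.062 and 2.96 ± 0.068 (SE, limma, adjusted p 4.43e-15 and 9.95e-15). Eif4b and Eif4h, which stimulate the helicase, had 2.54 and 2.23, each with a second probe set that went the other way. Eif4a3, whose product sits in the exon junction complex, had 0.56 and was not called.

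On the brightest probe sets 1 of the 3 eIF4G scaffold genes was called, and it was lower in both kinds of ES cell. Of all genes 28.9% were called lower in RahES cells and 29.4% in DA5-3. The called gene, Eif4g3, ran from 1637 to 1953 (median 1794) in RahES cells and was 2198, 2335 and 2058 in DA5-3, against 14097, 15081 and 14356 in round sperm cells. In mouse it is needed for spermatocytes to pass through meiosis. Its log2 difference was -3.01 ± 0.047 in RahES cells and -2.72 ± 0.054 in DA5-3 (SE, limma, adjusted p 2.6e-16 and 4.1e-15), the largest fall among the 47 genes in both comparisons. Eif4g1, the gene of the main somatic scaffold, ran from 2754 to 3296 (median 2988) in RahES cells and was 3653, 4328 and 3605 in DA5-3, against 2601, 2746 and 3085 in round sperm cells. The RahES and round sperm arrays overlapped, with a log2 difference of 0.10 and an adjusted p of 0.161 in limma. Eif4g2, a relative that does not bind eIF4E, ran from 14881 to 16962 (median 15579.5) in RahES cells and was 19264, 20142 and 19929.8 in DA5-3, against 11940.3, 12265 and 12145 in round sperm cells, a log2 difference of 0.38 in RahES cells that was not called. Its probe set 1388359_at, in the fit on single probe sets described below, gave 2.36 in RahES cells (limma, adjusted p 4.7e-14) and 2.50 in DA5-3, past the call. Another, 1397520_at, gave 0.55 in RahES cells.

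No cap-binding protein gene was called higher, where 43.2% of all genes were. Eif4e ran from 6462 to 7096 (median 6797) in RahES cells and was 7662, 7248 and 7171 in DA5-3, against 4722, 4592 and 4258 in round sperm cells, with log2 differences of 0.59 and 0.70. Eif4e2, whose product binds caps without supporting eIF4F, ran from 2380.0 to 2970.2 (median 2539.9) in RahES cells and was 4146, 4058 and 3981 in DA5-3, against 4333, 4371 and 4619 in round sperm cells. Its log2 difference was -0.77 in RahES cells and -0.13 in DA5-3 (limma, adjusted p 5.05e-10 and 0.033). The second of these values turned above 0 with quantile normalization. The remaining family member, Eif4e3, ran from 61.1 to 90.2 (median 81.5) in RahES cells and was 149.7, 141 and 141 in DA5-3, against 263, 246 and 245 in round sperm cells. It was at least 2.51-fold lower in RahES cells (limma, adjusted p 2.36e-07), and its log2 difference of -0.74 in DA5-3 was not called.

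Inhibitors of eIF4E were called higher in both kinds of ES cell for 2 of the 3 binding proteins, where 43.2% of all genes were. Eif4ebp1, an inhibitor that mTOR inactivates by phosphorylation, ran from 6745 to 7272 (median 7072) in RahES cells and was 4446, 4261 and 4402 in DA5-3, against 91.2, 172 and 106 in round sperm cells. The log2 differences were 5.71 ± 0.12 in RahES cells and 5.02 ± 0.14 in DA5-3 (SE, limma, adjusted p 5.94e-15 and 1.46e-13). Eif4ebp2 ran from 4546 to 4868 (median 4753) in RahES cells and was 4392, 4112 and 4000.0 in DA5-3, against 279, 342 and 242 in round sperm cells. All ES cell arrays were above all round sperm arrays, by 3.98 and 3.80 on the log2 scale. Eif4ebp3 had -0.66 and -0.58, and Eif4enif1, whose product shuttles eIF4E to processing bodies, -0.21 and -0.05, both short of the call.

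**Figure D2:**
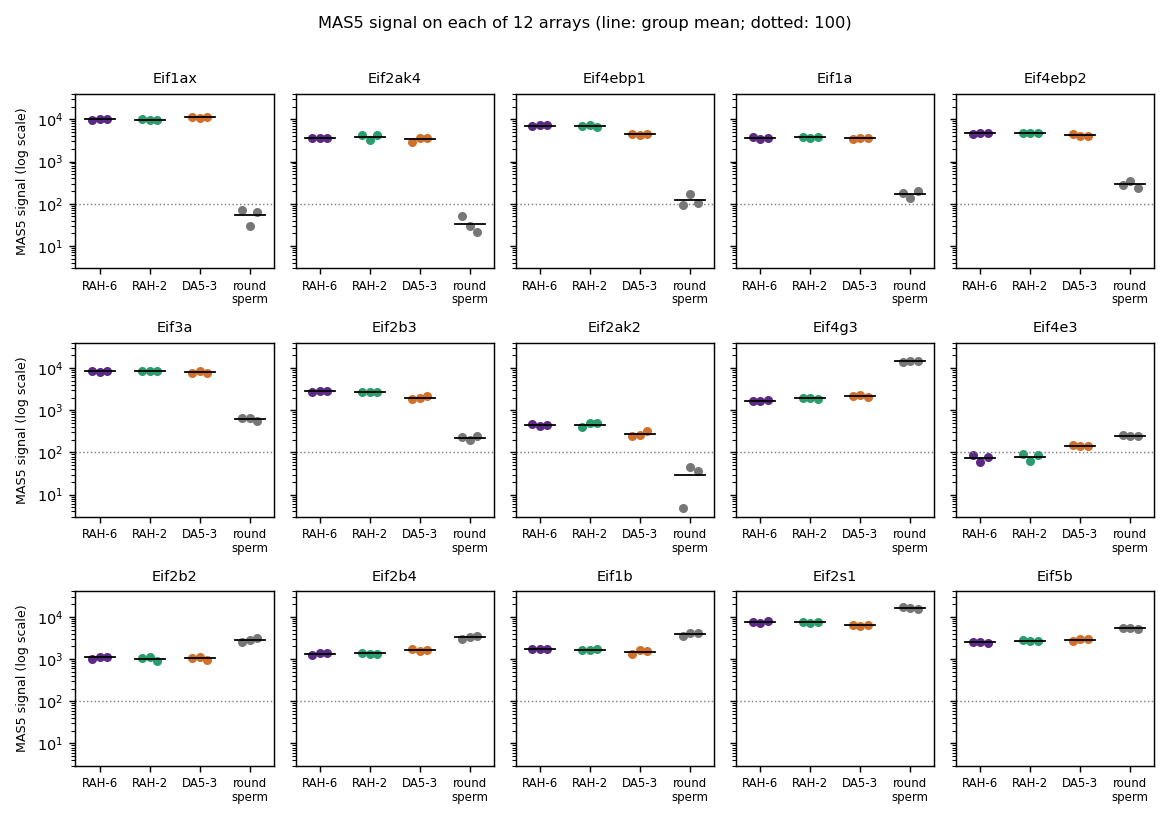
MAS5 signal (log scale) of 8 of the members called higher and the 7 called lower in RahES cells against round sperm cells, on each of the 12 arrays, with group means as lines. The dotted line is the limit of 100, below which all round sperm arrays of Eif1ax, Eif2ak4 and Eif2ak2 and all RahES arrays of Eif4e3 lie.

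Late factors differed in both directions. Eif6, which keeps free large ribosomal subunits from joining, was called higher at 2.74 ± 0.065 in RahES cells and 3.01 ± 0.075 in DA5-3 (log2, SE, limma, adjusted p 1.51e-14 and 3.69e-14). Eif5b, the gene of the GTPase that joins the subunits, ran from 2389 to 2778 (median 2604) in RahES cells and was 2611, 2926 and 3047 in DA5-3, against 5324, 5416 and 5267 in round sperm cells. It passed the fold of the call in RahES cells (log2 -1.03, adjusted p 5.46e-11) and missed it in DA5-3 (log2 -0.90, adjusted p 1.76e-09). Eif5a, a factor that helps ribosomes over difficult sequences, ran from 10273 to 11848 (median 11072) in RahES cells and was 9529, 10640.4 and 10795 in DA5-3, against 5546, 7687 and 7449 in round sperm cells. Its relative Eif5a2 ran from 1772 to 1914 (median 1827) in RahES cells and was 1788, 1999.9 and 2078 in DA5-3, against 1974, 1851 and 1978 in round sperm cells. Neither was called, with log2 differences of 0.70 and -0.07 in RahES cells.

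Whether paralogs shifted by different amounts was tested for 10 pairs on the per-array difference of their log2 values. This was an exact two-sided permutation test of 6 RahES against 3 round sperm arrays. The RahES arrays of both lines were permuted as single units, so its p does not measure the spread between lines. The smallest p of this design is 0.0238, or 0.0264 after Benjamini-Hochberg adjustment over the 10 pairs. It was reached by 9 pairs, among them those with a gene below 100 in a group, which are set apart below. Eif4g1 over Eif4g3 was 3.10 higher in RahES cells on the log2 scale (exact permutation p = 0.0238) and 3.17 higher in DA5-3. Eif4ebp1 over Eif4ebp2 was 1.73 higher in RahES cells and 1.23 higher in DA5-3, Eif5a over Eif5a2 0.77 and 0.58, and Eif4g1 over Eif4g2 -0.28 and -0.25. Eif4e over Eif4e2 was 1.36 and 0.83 on the brightest probe sets, but the ratio in RahES cells turned to -0.37 with the mean of all probe sets (exact permutation test, adjusted p 0.167). With that mean Eif4g1 over Eif4g2 was -1.02 in RahES cells. Eif4a1 over Eif4a2 differed by -0.02 in RahES cells (exact permutation p = 0.738) and by 0.44 in DA5-3. The pairs of Eif2ak1 with each other kinase and of Eif4e with Eif4e3 also reached the smallest p. In each of these pairs 1 gene was below 100 on every array of a group, so the size of the ratio was not measured. The direction of these ratios follows from that low signal, and their p is not taken as a test of it. DA5-3 values were not tested, since 3 against 3 arrays cannot go below an exact p of 0.10.

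For genes with several probe sets the choice of the brightest one mattered. In a fit on 18132 probe sets, where 71.8% were called in RahES against round sperm cells (45.7% higher, 26.1% lower), 70 probe sets of members were tested. Of 16 members with several of them, 7 had probe sets past the adjusted p in both directions in RahES against round sperm cells. Of these 3, Eif4e, Eif4h and Eif5b, were called in both directions. How often probe sets disagree among all genes with several of them was not analysed here, so these counts describe the members only. This fit was added after the values were seen. For Eif4e, probe set 1398799_at gave the values above, while 1394529_at ran from 7.0 to 62.2 in RahES cells, against 3472 to 3956 in round sperm cells, at least 37.6-fold lower (limma, adjusted p 3.85e-10). Another probe set, 1386997_at, averaged 163 in RahES cells and 18.9 in round sperm cells, at least 1.62-fold higher. For Eif4h, 1397675_at averaged 362 ± 18.1 in RahES cells and 3055 ± 435 in round sperm cells (SD, n = 6 and 3), a log2 difference of -3.01 (limma, adjusted p 4.03e-13) where the brightest probe set gave 2.23. Eif5b had log2 differences of -1.03, -0.89 and 1.69 over its 3 probe sets. The remaining 4 genes were Eif1a, where 1 of 4 probe sets gave -0.98, Eif4b (-0.48 on the second probe set), Eif4g1 (from -0.85 to 0.87) and Eif2b5, where the second probe set was at least 2.57-fold higher in RahES cells. In DA5-3 against round sperm cells Eif3j also had probe sets past the adjusted p in both directions, at 2.06 and -0.47. Where along the transcript each probe set lies was not analysed here.

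**Figure D3:**
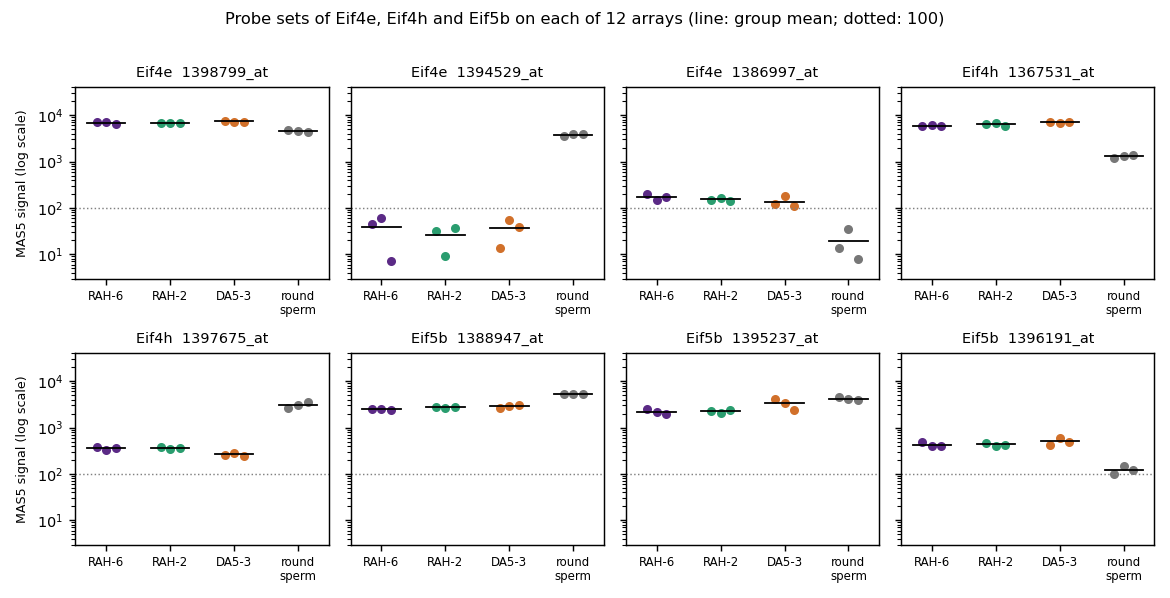
MAS5 signal (log scale) of each probe set of Eif4e, Eif4h and Eif5b on the 12 arrays, with group means as lines and the limit of 100 dotted. On 1394529_at of Eif4e and 1397675_at of Eif4h the round sperm arrays lie above all ES cell arrays, opposite to the brightest probe set of the same gene.

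Genes that act on the initiation factors were taken from 4 lists, whose counts stand against 43.2% of all genes called higher and 28.9% lower in RahES cells, and 43.2% and 29.4% in DA5-3. Of 18 tested genes of mTOR, S6 kinase and MNK signalling, 15 were called higher and 0 lower in RahES cells, and likewise in DA5-3, with a median log2 difference of 2.45 and 2.08 (2.21 and 1.84 with genes below 100 at their bound), against the medians of 0.59 and 0.56 over all genes. Rheb, the GTPase that switches on mTOR, averaged 9755 ± 382 in RahES cells and 1361 ± 66.9 in round sperm cells (SD, n = 6 and 3). Sesn2, an inhibitor of mTOR that answers to leucine, averaged 3269 ± 215 in RahES cells and 311 ± 11.1 in round sperm cells. Ddit4, another inhibitor, was at least 16.9-fold and the S6 kinase gene Rps6kb1 at least 6.66-fold higher in RahES cells (limma, adjusted p 9.65e-14 and 5.04e-13). Both are among 5 of the 18 that were below 100 on every array of 1 group, with 5 also in the DA5-3 comparison. The direction of such genes follows from the filter, and the adjusted p does not test it. The count of 15 includes such genes. Members that rose thus include activators and inhibitors of mTOR.

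Of 20 genes of the eIF2alpha phosphatases and of ATF4 targets, 15 were called higher and 2 lower in RahES cells, with a median of 3.36, and 15 higher and 1 lower in DA5-3, with a median of 2.69, against the same shares and medians of all genes. Atf4, whose own mRNA is translated when eIF2 is limiting, averaged 14019 ± 1287 in RahES cells and 736 ± 78 in round sperm cells. Psat1, a serine synthesis enzyme, was at least 141-fold higher in RahES cells (limma, adjusted p 2.03e-20). Psat1 is among 4 of the 20 genes below 100 on every array of 1 group (3 in the DA5-3 comparison). Their direction follows from the filter, and the adjusted p does not test it. Ppp1ca, the gene of a phosphatase catalytic subunit, averaged 7566 ± 459 in RahES cells and 272 ± 36.4 in round sperm cells, and Impact, an inhibitor of GCN2, 2397 ± 109.6 in RahES cells and 189 ± 20.4 in round sperm cells. The 2 genes called lower in RahES cells were Vldlr and Ppp1cc, named after their values were seen, with log2 differences of -4.19 and -1.22.

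Poly(A) binding proteins and cofactors gave 7 called higher and 3 lower of 15 in both kinds of ES cell, where 72.1% of all genes were called in RahES cells and 72.7% in DA5-3, so nothing is read from this count. Ddx3x, an X-linked helicase that aids scanning, averaged 14349.5 ± 856 in RahES cells and 417 ± 34.2 in round sperm cells. Cyfip1, which can bind eIF4E, averaged 3394 ± 94.9 in RahES cells and 269 ± 26.8 in round sperm cells, and the poly(A) binding protein gene Pabpc4 6756 ± 226 in RahES cells and 234 ± 52.8 in round sperm cells. Paip2, an inhibitor of poly(A) binding protein, averaged 3468 ± 139 in RahES cells and 21009 ± 224 in round sperm cells. Of 14 elongation, termination and recycling factors, 4 were called higher and 2 lower in RahES cells, and 5 and 2 in DA5-3. Abce1, which splits ribosomes after termination, averaged 4097 ± 44.8 in RahES cells and 348 ± 71.1 in round sperm cells. The elongation kinase gene Eef2k averaged 1073 ± 99 in RahES cells and 224 ± 12.8 in round sperm cells and Eef1e1 2921 ± 171 in RahES cells and 759 ± 18.4 in round sperm cells. Pelo, a rescue factor for stalled ribosomes, went the other way and averaged 518 ± 16.3 in RahES cells and 4544 ± 123 in round sperm cells.

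RahES cells were then set against DA5-3 cells, on the 9 ES cell arrays and 9282 genes. No initiation factor gene passed the call, 0 of 47, where 6.53% of all genes were called (3.68% higher, 2.84% lower). At an unadjusted p under 0.05 in limma, 34 of the 47 differed, against 62% of all genes tested. At the adjusted p alone 10 were higher and 22 lower in RahES cells, 68.1% of members against 57.1% of all genes tested (31.1% higher, 26.1% lower). The 22 lower include Eif4e3, which was below 100 on every RahES array. The 46 members measured in both groups ran from -0.64 to 0.69 on the log2 scale, and the median of the 47 was -0.09, against 0.03 over all genes. Without the 3 arrays named above 10 were higher and 21 lower. Median centring of the arrays gave 12 higher and 17 lower, and quantile normalization 12 and 18.

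Eif4ebp1 had the smallest adjusted p. Its signal ran from 6745 to 7272 (median 7072) in RahES cells, against 4446, 4261 and 4402 in DA5-3, without overlap and with a log2 difference of 0.69 ± 0.040 (SE, limma, adjusted p 3.27e-08). The RahES and DA5-3 arrays did not overlap for 30 of the 47 members, against 44.3% of all genes tested. Eif4e2 was lower by a log2 value of -0.64 ± 0.045 (adjusted p 1.65e-07), with 4146, 4058 and 3981 in DA5-3 all above the highest RahES array. Eif2b3 was higher by 0.49 ± 0.050 (adjusted p 3.57e-06). Of all genes 26.1% were lower in RahES cells at the adjusted p. On the brightest probe sets all 3 scaffold genes were lower, with log2 differences of -0.36 for Eif4g1, -0.33 for Eif4g2 and -0.29 for Eif4g3. In the fit on single probe sets, the others of Eif4g1 gave 0.11, 0.03 and -0.27, and those of Eif4g2 -0.13 and 0.12. Of these only the -0.13 of Eif4g2 passed the adjusted p (limma, 0.0295). Also lower were 2 cap-binding protein genes, Eif4e2 and Eif4e, of which Eif4e had -0.11 (limma, adjusted p 0.0357). Eif4e3 passed the filter of this fit through the DA5-3 arrays alone, so only its bound is given, at least 1.44-fold lower in RahES cells. For Eif4e the sign turned with the mean of all its probe sets, as it did for Eif3c and Eif4h. In the fit on single probe sets Eif4h gave -0.20 and 0.43, both past the adjusted p (limma, 0.00271 and 0.00138). Eif1a also had probe sets past it in both directions, from -0.25 to 0.56.

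Of the 11 eIF3 subunit genes 6 were lower and 2 higher in RahES cells at the adjusted p, against 26.1% and 31.1% of all genes. Eif3k had the largest fall, averaging 4303 ± 306 in RahES cells and 6119.8 ± 575 in DA5-3 (SD, n = 6 and 3), a log2 difference of -0.51. The second probe set of Eif3k, 1381339_at, gave -0.13 (limma on single probe sets, adjusted p 0.511). Eif3i had the largest rise at 0.41 (limma, adjusted p 0.00022). The other subunit gene that was higher was Eif3l, at 0.19. Among kinases, Eif2ak2 was higher in RahES cells by 0.69 ± 0.11 on the log2 scale (SE, limma, adjusted p 0.000139), and the other 3 did not pass the adjusted p. Its RahES arrays ran from 394 to 496 (median 456), against 243, 258 and 328 in DA5-3. Eif1ax, the X-linked member, had a log2 difference of -0.15 ± 0.039 (adjusted p 0.00455). In the same comparison 12 of 13 fibroblast markers tested were called lower in RahES cells, and their part in these differences was not tested. Among the list genes Phgdh (log2 1.28), Atf3 (1.17) and Deptor (1.08) were called higher.

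**Figure D4:**
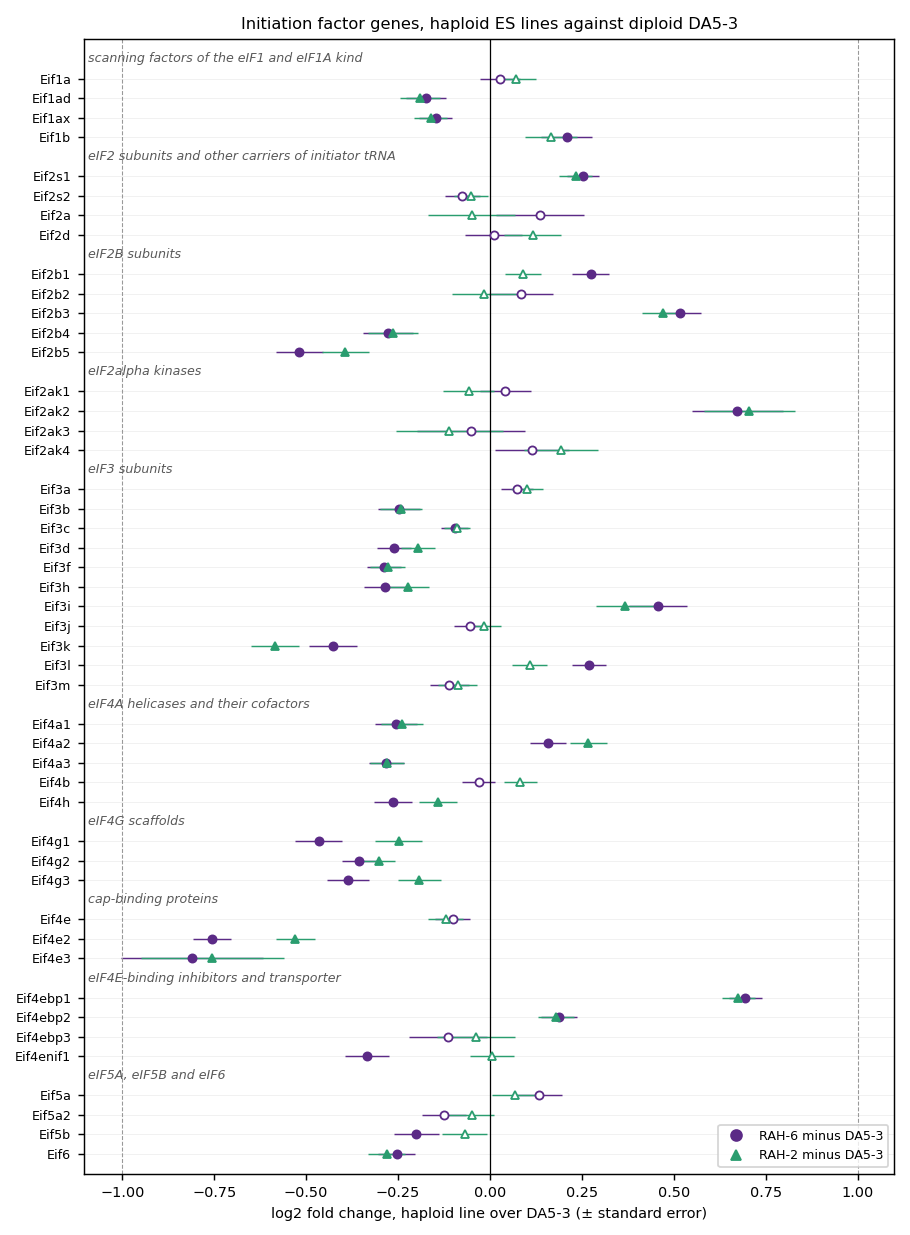
Log2 fold change (± standard error) of the 47 initiation factor genes in RAH-6 (circles) and RAH-2 (triangles) over DA5-3, by role. Filled symbols passed the adjusted p of 0.05. No gene reaches the dashed lines of the call. The 3 eIF4G scaffold genes, each read from its brightest probe set, lie left of 0 in both lines.

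Each haploid line was also set against DA5-3 by itself, with the same DA5-3 arrays in both. RAH-6 had 0 members called, where 7.56% of all genes were (4.71% higher, 2.85% lower). At the adjusted p alone 10 were higher and 21 lower, with 55.5% of all genes passing it (30% higher, 25.5% lower). At an unadjusted p under 0.05 in limma 32 of 47 differed, against 60.6% of all genes tested. RAH-2 had 0 called, where 6.45% of all genes were (3.31% higher, 3.15% lower). At the adjusted p alone 7 were higher and 18 lower, with 50.2% of all genes passing it (27.6% higher, 22.6% lower), and in limma 30 of 47 had an unadjusted p under 0.05, against 56.5% of all genes tested. For RAH-2 the balance depended on the scaling, with 12 higher and 11 lower after median centring and 11 and 14 after quantile normalization. Without the 3 arrays RAH-6 had 9 higher and 20 lower and RAH-2 8 and 14. Eif4ebp1, Eif4e2 and Eif2b3 had the smallest adjusted p in RAH-6, with log2 differences of 0.70, -0.76 and 0.52 (limma, adjusted p 1.32e-07, 1.93e-07 and 9.71e-06). In RAH-2 they were Eif4ebp1, Eif4e2 and Eif3k, with 0.68, -0.53 and -0.59 (adjusted p 2.3e-07, 4.67e-06 and 1.26e-05). Eif3k signals were 4391, 4674 and 4553 in RAH-6, 3833, 4253 and 4114 in RAH-2 and 6777, 5877 and 5706 in DA5-3, with no overlap between either line and DA5-3. Of all genes tested, 61.5% did not overlap between RAH-6 and DA5-3, and 56.7% between RAH-2 and DA5-3.

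Between the 2 haploid lines 0 of 47 genes were called, where 0.797% of all genes were (0.603% higher, 0.194% lower). At the adjusted p alone 2 were higher and 4 lower in RAH-6 (18.8% of all genes passed it, 9.67% higher and 9.1% lower), and 11 of 47 differed at an unadjusted p under 0.05 in limma, against 33.6% of all genes tested. Median centring left 0 higher and 10 lower. Eif4enif1 differed most clearly, with 1183, 1131 and 1160.4 in RAH-6 and 1482, 1403 and 1532 in RAH-2, a log2 difference of -0.34 ± 0.060 (SE, limma, adjusted p 0.00249). Signals of Eif4e2 were 2380.0, 2384 and 2435 in RAH-6 and 2970.2, 2822 and 2644 in RAH-2, a difference of -0.23 (adjusted p 0.0108). For Eif2b1 they were 2314, 2273 and 2243 in RAH-6 and 2077, 1986 and 1946 in RAH-2, a difference of 0.18 (adjusted p 0.0237). The lines did not overlap for any of these 3 genes, which were picked by their adjusted p. Of the 47 members 13 did not overlap, against 41.2% of all genes tested. Among the list genes 1, Ddit4, was called lower in RAH-6 with a log2 difference of -1.35.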

How the data were processed

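Expression was measured in 12 samples of 4 groups, 3 arrays each. The values the authors deposited are log2 MAS5 signals, per the submitters' processing notes and the values themselves, and on the linear scale the trimmed mean (2%) of every array was 500. The MAS5 version is not given in the sources used here. For the fits this scaling was repeated and the log2 of the signal plus 16 was taken. Of 31099 probe sets 20832 named 1 gene (436 several, 9831 none), through GEO's platform annotation, and 20764 of these matched RefSeq (GRCr8). Promoter sequences are RefSeq's. Genes with a signal of at least 100 on at least 3 arrays were fitted with limma 3.58.1 (R 4.3.3, trended variance) on all genes at once, 10529 on the 12 arrays for comparisons with round sperm cells and 9282 on the 9 ES cell arrays for the others. RahES is the mean of RAH-6 and RAH-2 with equal weight. Where a group was below 100 on all arrays, the fold is a bound computed against 100, and the adjusted p is that of the fit. The fit was tested on simulated data. Number of arrays limits the precision, and p-values measure the spread between the labelled biological replicates, whose sources are not described. Groups share replicate numbers, but same-numbered arrays correlated at -0.086 to 0.059 in their deviations over 18 pairs of arrays, 0 of them over 0.1, so numbers were not taken as pairs.

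The members and lists were chosen with earlier results of these data known. Values are given for up to 8 called members each way with the largest fitted difference in RahES against round sperm cells, up to 5 each way in the other comparisons or otherwise the 3 with the smallest adjusted p, for members of paralog pairs, for members called in 1 of the 2 sperm comparisons, and for up to 4 called genes of each list. Alternatives were median centring, quantile normalization, an offset of 64 or none, no filter or a limit of 200, the mean of all probe sets of a gene, other arrays in the fit, no variance trend, a replicate block and each array left out.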

Additional observations from a re-analysis of the deposited data

Results flagged for a closer look

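For 6 members the test of RAH-6 against RAH-2, which is also the test of whether their differences to DA5-3 differ between the lines, passed an adjusted p of 0.05 in limma. The log2 differences, RAH-6 minus RAH-2, were -0.34 for Eif4enif1, -0.23 for Eif4e2, -0.22 for Eif4g1, -0.19 for Eif4g3, 0.18 for Eif2b1 and 0.16 for Eif3l. All are short of the fold of the call. The 6 are 12.8% of the members, a smaller share than the 18.8% of all genes tested that passed the same adjusted p. Groups of 3 arrays were too small to test single arrays as outliers.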

How the results depend on the processing

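In RahES against round sperm cells, 19 to 22 members were called higher and 5 to 10 lower over the alternatives, and in DA5-3 against round sperm cells 17 to 25 and 5 to 8. No alternative gave a called member in the comparisons among ES cells. With the mean of all probe sets of a gene the sign turned for Eif4e (-1.14), Eif4h (-0.39) and Eif2b5 (0.72) in RahES against round sperm cells, and for Eif2b5 (1.08), Eif4e (-1.13), Eif4h (-0.51), Eif5b (0.21) and Eif5a2 (-0.10) in DA5-3 against round sperm cells. The call was lost for Eif3j (0.98) and Eif5b (-0.08) in RahES and for Eif3j (0.80) and Eif3c (0.95) in DA5-3, and gained for Eif3c (1.08), Eif3l (-1.20) and Eif4g2 (1.10) in RahES and Eif4g2 (1.21) in DA5-3. With this mean, an alternative chosen after seeing the data for the paralog pairs, the log2 ratio in RahES against round sperm cells was -0.37 for Eif4e over Eif4e2 and 0.39 for Eif4e over Eif4e3, neither past the adjusted p. The disagreement of the probe sets shows in their own values, and its cause was not tested. Leaving out 1 round sperm array leaves 6 against 2 arrays, and the exact test of the paralog pairs then cannot pass. With each array left out in turn, the log2 ratios in RahES against round sperm cells ran from 1.29 to 1.41 for Eif4e over Eif4e2, 3.06 to 3.18 for Eif4g1 over Eif4g3, -0.32 to -0.21 for Eif4g1 over Eif4g2, 1.57 to 1.84 for Eif4ebp1 over Eif4ebp2 and 0.61 to 0.89 for Eif5a over Eif5a2. Fitted ratios that rest on a gene below 100 in round sperm cells, and are no measured sizes, ran from -3.62 to -2.85 for Eif2ak1 over Eif2ak2, -3.24 to -2.91 for Eif2ak1 over Eif2ak3, -6.34 to -5.99 for Eif2ak1 over Eif2ak4, and, for a gene below 100 in RahES cells, 2.04 to 2.16 for Eif4e over Eif4e3. The replicate block changed no call of a member, with 20 higher and 7 lower in RahES against round sperm cells. At the adjusted p alone, members higher in RAH-6 against DA5-3 were 6 to 12 (10 in the report), and in RAH-6 against RAH-2 0 to 3 were higher and 1 to 10 lower. An offset of 64 lowered the genes called over the whole array to 398 in RahES against DA5-3 (606 otherwise), to 393 in RAH-2 against DA5-3 (599) and to 26 in RAH-6 against RAH-2 (74), where the count was 112 with no filter, 46 at a limit of 200, and 49, 123 and 49 without RAH-2 replicate 1, 2 or 3. Signals near 100 limit what can be said of Eif2ak2, Eif2ak3 and Eif4e3.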
